A study of Arabidopsis thaliana with 8 samples.

Results

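Calmodulin-like proteins are relatives of calmodulin that bind calcium ions through EF-hand domains. When the calcium level of the plant cell rises after touch, wounding, flooding or attack, these sensors change shape and act on other proteins. They have no catalytic activity of their own, and many of their genes are themselves induced by the same stimuli. CML38 (AT1G76650) is known for induction by wounding and low oxygen, CML42 (AT4G20780) for roles in trichome branching and in jasmonate-dependent defence against insects, and AT2G41410 is a further calmodulin-like gene. These 3 genes were chosen by name, with earlier results of these arrays known, so their place among all genes is a description. Each was represented by 1 probe set with a single gene, out of 22746 probe sets that were not controls, and all 3 passed the filter on low signal.

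RNA came from whole Arabidopsis plants of 2 natural accessions, Col-4, labelled non-calcicole, and Cal-0, labelled calcicole, the term for plants that thrive on chalk or limestone. Each accession had 4 arrays, 8 in all. All plants were at developmental stage 3.90 and grew on sand in a growth room kept at 23 degrees Celsius, humidity 34 and light 160 (units not labelled). Their seed had been stratified for 48 hours at 4 degrees Celsius, and they were fed 1 mM CaCl2 in Long Ashton solution at 0.5 of full strength. Calcium supply was thus the same for Cal-0 and Col-4, and no array tests a response to lime. Nothing in the labels makes the replicates separate plants or cultures. The p-values therefore measure only the spread between these samples, and that spread may be technical. In whole plants, fewer cells of a type and less RNA per cell cannot be told apart.

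Values are signals of the 1-colour ATH1 array on a linear scale, already brought by the authors to a common level. How well the probes match the sequence of either accession was not examined. A difference in signal between Cal-0 and Col-4 therefore need not be a difference in RNA amount. Array medians lay between 44.0 and 50.1 signal units. The leaf gene LHCB4.1, of the light-harvesting antenna, was at 4771 to 9487, and the root gene PYK10, of a beta-glucosidase, at 329 to 1106. A second root gene, AT5G66390, had a mean of 19.3, below the filter on low signal. The pollen gene AT3G01270 was at 11.5 to 65.3, and no other listed marker of flowers or seeds had a probe set in the gene table used here. The titles number the arrays from 1 to 8, and arrays 1 to 4 and arrays 5 to 8 each hold 2 arrays of either accession. A measure of RNA integrity was the log2 ratio of signal at the 3′ end to signal at the 5′ end of the control transcripts for GAPDH and actin. This ratio was higher on average in arrays 5 to 8, though the sets overlapped. Within arrays 1 to 4 it was higher in Cal-0 than in Col-4. In arrays 1 to 4 it was 1.70 and 1.52 in Cal-0 and 0.95 and 0.93 in Col-4, and in arrays 5 to 8 it was 1.88 and 1.96 in Cal-0 and 1.66 and 2.39 in Col-4.

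None of the 3 genes differed between Cal-0 and Col-4 past the threshold, but they varied over the arrays in very different ways. The mean signal of AT2G41410 was 3.26 times as high on arrays 5 to 8 as on arrays 1 to 4. CML42 and CML38 had no such step upwards, and their mean signals were 1.51 and 1.36 times as high in Cal-0 as in Col-4. limma called 651 of 15165 probe sets between the accessions at a Benjamini-Hochberg adjusted p under 0.05, which is 4.29% of those tested. The 3 genes were not among them.

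**Figure D1:**
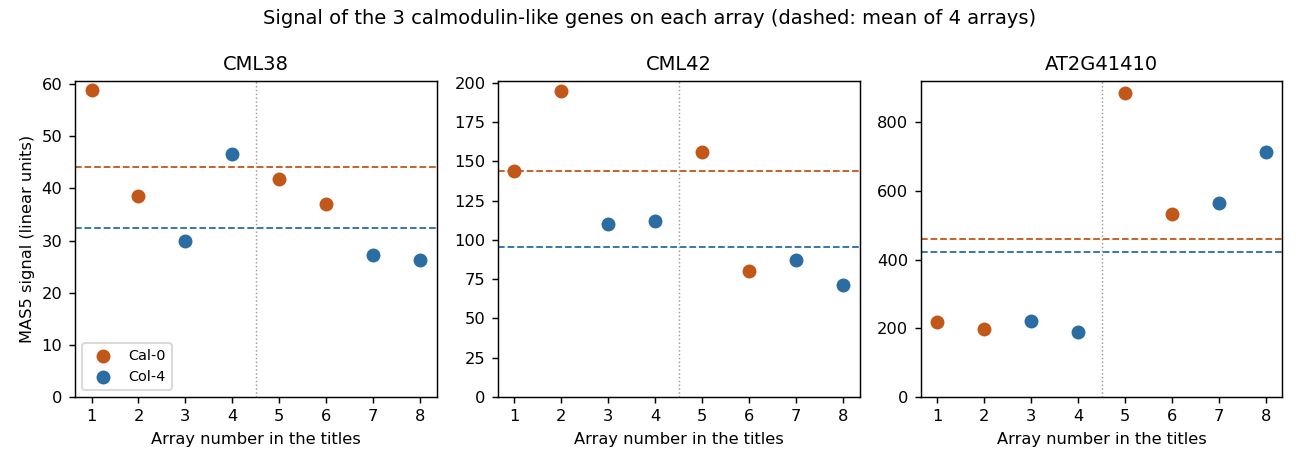
MAS5 signal (linear units, axis from 0) of CML38, CML42 and AT2G41410 against the array number in the titles, with Cal-0 in orange and Col-4 in blue and a dashed line at the mean of each accession's 4 arrays. AT2G41410 lies between 188.5 and 221.7 on arrays 1 to 4 and between 533 and 886 on arrays 5 to 8, whatever the accession.

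AT2G41410 stood at 219.0, 198.7, 885.5 and 533.2 in Cal-0 replicates 1 to 4. In Col-4 replicates 1 to 4 it was at 221.7, 188.5, 565.2 and 712.7. Replicates 3 and 4 of both accessions, which are arrays 5 to 8, were high, and replicates 1 and 2 were low, with a wide gap between them. The accession means were close beside this spread, 459 ± 323 for Cal-0 against 422 ± 258 for Col-4 (SD, n = 4 arrays each). On the scale of log2(signal + 16) used for every difference here, the accession difference was 0.07 (limma adjusted p = 0.976). Its 95% interval, -1.03 to 1.17 holds differences of over 1 log2 unit in either direction.

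The interval became narrower once the array set was taken into account. This narrowing follows from the large step of this gene between the sets, a division noticed in these data. With the set as a factor the difference was again 0.07, with an interval of -0.29 to 0.43. Within arrays 1 to 4 the difference was 0.03 (interval -0.52 to 0.57), and within arrays 5 to 8 it was 0.11 (interval -0.43 to 0.66). These intervals use a residual spread shared by the sets, so they do not measure the spread of either set by itself. The step itself was of like size in both accessions, 3.40-fold in Cal-0 and 3.12-fold in Col-4. As a description, the log2 difference between the sets, 1.60, ranked 5 in size among the 15165 tested probe sets. A rise of at least 1 on that scale was seen in 0.462% of them, and arrays 5 to 8 lay wholly above arrays 1 to 4 in 6.46%, wholly below in 8.61% and apart in either direction in 15.1%. The division of the arrays was noticed in these data and is not described in the labels, so no test is given for it. The 3′ to 5′ ratio was higher on arrays 5 to 8 on average, and its part in the step was not tested. With that ratio as a covariate, the accession difference of AT2G41410 turned to -0.35 (interval -1.11 to 0.41), still not past the threshold.

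CML42 stood at 143.7, 195.0, 155.9 and 80.1 in Cal-0 replicates 1 to 4. In Col-4 replicates 1 to 4 it was at 110.3, 111.9, 87.1 and 71.5. The first 3 Cal-0 arrays lay above all Col-4 arrays, while Cal-0 replicate 4 fell among the lower Col-4 values, so the accessions overlapped. The means were 143.7 ± 47.7 and 95.2 ± 19.4 (SD, n = 4 arrays each). The log2 difference was 0.48 with a standard error of 0.23 and an interval from -0.02 to 0.98 (limma adjusted p = 0.348). Arrays of the same replicate number were higher in Cal-0 in 4 of 4 pairs, and how many of all probe sets did so was not counted. When the replicate number entered the fit as a block, the interval was 0.17 to 0.80 (limma adjusted p = 0.0684), which did not pass. With the array set as a factor it was 0.09 to 0.88 (limma adjusted p = 0.152). Without Cal-0 replicate 4 the difference was 0.71 (limma adjusted p = 0.0611). Both sets of arrays gave a positive difference, 0.53 in arrays 1 to 4 and 0.44 in arrays 5 to 8. Arrays 5 to 8 were lower than arrays 1 to 4 by a mean of -0.47 on the log2 scale, and the sets overlapped.

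CML38 was the dimmest of the 3 probe sets, at 59.0, 38.5, 41.9 and 37.0 in Cal-0 replicates 1 to 4. In Col-4 replicates 1 to 4 it was at 29.9, 46.6, 27.2 and 26.3. Col-4 replicate 2 reached into the Cal-0 range, and the other 3 Col-4 arrays lay below every Cal-0 array. The means were 44.1 ± 10.1 and 32.5 ± 9.52 (SD, n = 4 arrays each). The log2 difference was 0.31 with a standard error of 0.17 and an interval of -0.06 to 0.69 (limma adjusted p = 0.428). At such low signal the scale understates the change, and with a pseudocount of 1 the difference was 0.44 (limma adjusted p = 0.397). The difference was 0.25 within arrays 1 to 4 and 0.37 within arrays 5 to 8. The sets themselves overlapped and differed by -0.27.

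**Figure D2:**
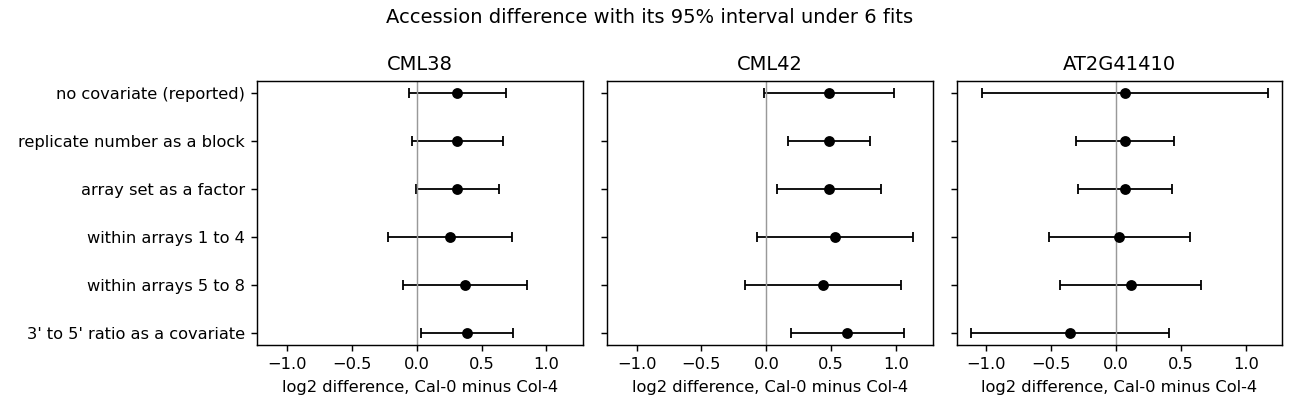
log2 difference of Cal-0 minus Col-4 (points) with its 95% interval (bars) for the 3 genes under 6 limma settings. The differences within each set of arrays come from a single fit with a shared residual spread. The interval of AT2G41410 shrinks from -1.03 to 1.17 without a covariate to -0.29 to 0.43 with the array set as a factor. That of CML42 moves from -0.02 to 0.98 to 0.09 to 0.88, and that of CML38 holds 0 in both. With the 3′ to 5′ ratio as a covariate the interval was 0.19 to 1.06 for CML42 and 0.03 to 0.74 for CML38. Neither gene passed in that fit (limma adjusted p = 0.102 and 0.219).

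The spread over arrays was compared between the accessions gene by gene. The coefficient of variation of AT2G41410 was 70.3% in Cal-0 and 61.1% in Col-4. Those of CML42 were 33.2% and 20.4%, and those of CML38 23.0% and 29.3%. The mean absolute deviation from the accession's median, on the log2 scale, was 0.31 in Cal-0 and 0.21 in Col-4 for CML42. The difference was tested with a two-sided permutation test over all 70 reassignments of the absolute deviations. That permutation test gave p = 0.743 for CML42, p = 0.743 for CML38 and p = 0.886 for AT2G41410, each 0.886 after Benjamini-Hochberg adjustment over the 3 genes. The test treats the deviations as exchangeable and takes no account of replicate numbers or array sets. Deviations from medians of so few arrays are not fully exchangeable, so its p-values are approximate. For AT2G41410 the deviations in both accessions hold the step between the sets, so the test says little of any other spread. With 4 arrays against 4 the smallest p such a test can reach is 0.0286. As a description, the residual standard deviation of AT2G41410, 0.96, ranked 36 among all tested probe sets, where the median was 0.24. That of CML42 was 0.39, exceeded by 13.0% of probe sets, and that of CML38 was 0.25, close to the median.

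Whether CML38 and CML42 were high on the same arrays was tested, and the relation did not pass. Over the 8 arrays Pearson's r was 0.59 (exact permutation p = 0.127) and Spearman's rho 0.71 (exact permutation p = 0.0576). Without the 2 arrays farthest from the median of CML38, Cal-0 replicate 1 and Col-4 replicate 4, r was 0.42. This was the only pair tested, because AT2G41410 falls into 2 separate clusters of 4 arrays.

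The probe sets most like each gene over the 8 arrays were found among 8297 tested probe sets with another single gene. For AT2G41410 the closest was AT2G46600, with a Pearson r of 0.978. AT2G46600 is listed here among the EF-hand calcium sensors other than calmodulins, 11 loci of which it was the 1 tested. It stood at 913.6, 792.9, 1846.2 and 1554.4 in Cal-0 replicates 1 to 4. In Col-4 replicates 1 to 4 it was at 935.1, 890.2, 1793.4 and 1989.0. Like AT2G41410, it was high on all of arrays 5 to 8 and low on all of arrays 1 to 4, with a log2 difference of 1.01 between the sets and of -0.13 between the accessions (limma adjusted p = 0.92). Next came SAMDC, of polyamine synthesis (r = 0.975), AT1G67340 (r = 0.974), AT5G13030 (r = 0.965) and AT1G14710 (r = 0.961). In all 5 the sets did not overlap, as in 15.1% of tested probe sets. The 5 were selected for their correlation with AT2G41410, so the shared step follows from the selection.

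**Figure D3:**
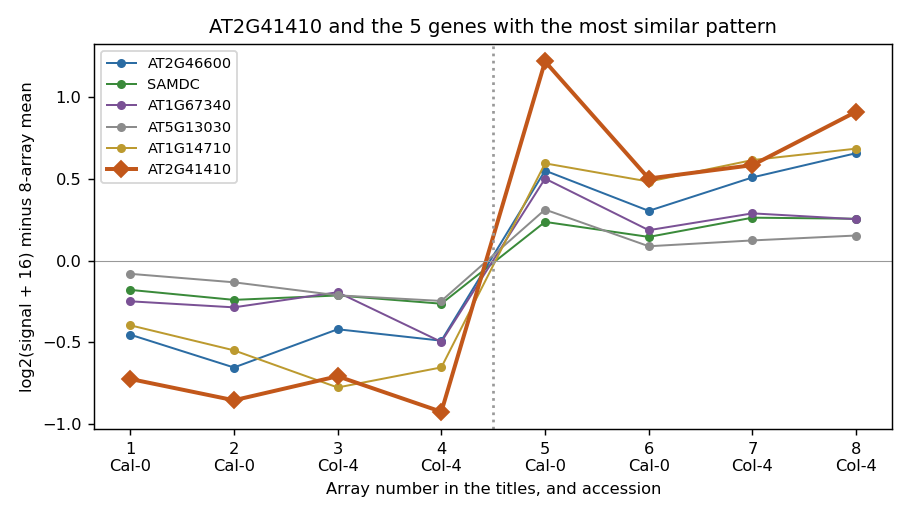
Deviation of log2(signal + 16) from its 8-array mean on each array, in the order of the array numbers, for AT2G41410 (orange diamonds) and the 5 genes of the highest Pearson r with it, 0.961 to 0.978. All 6 lie below 0 on arrays 1 to 4 and above 0 on arrays 5 to 8, AT2G41410 with the widest swing.

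For CML42 the closest genes were AT2G44065 (r = 0.994), AT2G36300 (r = 0.987), AT2G17530 (r = 0.973), AT1G67470 (r = 0.964) and AT5G42000 (r = 0.943). For CML38 they were SAE1A, a subunit of the SUMO-activating enzyme (r = 0.967), AT3G08000 (r = 0.95), AT5G18370 (r = 0.943), AT5G55860 (r = 0.933) and AT3G63090 (r = 0.93). With 8 arrays and so many candidates, high coefficients are found for nearly any gene, so these values are a description. No gene of the calcium lists was among the closest 5 of CML42 or CML38.

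The wider calmodulin family was read from a list of 53 other loci of calmodulins and calmodulin-like proteins. Of these, 32 had a single-gene probe set, and 16 of the 32 passed the filter on low signal. None of the 16 passed the test, where 1.54% of all probe sets were called higher and 2.75% lower in Cal-0. Of their differences 11 were positive and 5 negative, with a median of 0.16 against 0.03 over all tested probe sets, and a range from -0.22 to 0.63. The largest was that of AT1G18210, at 357.2, 349.7, 376.4 and 267.2 in Cal-0 replicates 1 to 4. In Col-4 replicates 1 to 4 it was at 241.9, 232.5, 225.5 and 157.0. The accessions did not overlap, as in 10.3% of tested probe sets, and the log2 difference was 0.63 (limma adjusted p = 0.0622). When the replicate number entered the fit as a block, its limma adjusted p was 0.0102 and it passed. That fit called 1299 probe sets or 8.57%, with 3.61% higher and 4.95% lower in Cal-0. Leaving out Cal-0 replicate 4 also brought it past the threshold, at a limma adjusted p of 0.041.

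Other family members gave values on either side of 0. CML43 lay between 30.5 and 64.3 in Cal-0 and between 13.2 and 49.3 in Col-4, so the accessions overlapped widely (log2 difference 0.34, limma adjusted p = 0.607). CML41 had a difference of -0.22 (limma adjusted p = 0.685). The brightest, AT2G41090, ran from 1122 to 1888 in Cal-0 and from 1011 to 2278 in Col-4. Its values on arrays 5 to 8 lay above those on arrays 1 to 4 by a log2 difference of 0.58. Of the 16 genes, AT2G41090 was the one with arrays 5 to 8 wholly above arrays 1 to 4, and AT1G12310 (set difference -0.25) the one wholly below, against 6.46% and 8.61% of all tested probe sets. The remaining 16 of the 32 genes were below the filter, among them CML37, CML23 and CML30 at mean signals of 3.80, 7.04 and 8.60. AT1G76640, the next gene to CML38 in the annotation and recorded there as CML39, was at 0.8 to 3.1 on the 8 arrays. The genes on either side of CML42 in the annotation, AT4G20770 at 2.9 to 8.7 and AT4G20790 at 0.5 to 9.4, were below the filter as well, and those of AT2G41410 had no single-gene probe set in the table used here. In a fit without the filter, AT3G59440 was lower in Cal-0 (2.50 ± 1.15 against 15.8 ± 5.01, SD, n = 4 arrays each, limma adjusted p = 0.0158), at signals that carry little information.

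No tested gene of the lists of calmodulin targets and calcium channels passed either. Of 19 calmodulin-binding genes, mostly IQ-domain proteins and largely matched by symbol, 12 were tested, 8 with a positive and 4 with a negative difference and a median of 0.03. IQD24 had the smallest p (127.2 ± 12.2 against 101.5 ± 10.7, SD, n = 4 arrays each, log2 difference 0.29, limma adjusted p = 0.327). For calcium transport, none of 14 listed loci, among them calcium pumps and exchangers, had a single-gene probe set in the table used here, so these were not examined. The list then held 7 genes matched by symbol, all glutamate receptor-like channels, of which 4 were tested, with a median of -0.02. GLR3.6 had the smallest p, with a log2 difference of -0.39 (limma adjusted p = 0.186). GLR2.7 was below the filter but had a lower signal in Cal-0 in the fit without it. It stood at 6.3, 5.5, 8.4 and 2.0 in Cal-0 replicates 1 to 4 and at 34.4, 43.9, 44.5 and 36.4 in Col-4 replicates 1 to 4 (limma adjusted p = 0.000671), and was singled out after its values were seen. Over the calcium lists together, 33 genes were tested, none was called by limma, and 2 had an unadjusted p under 0.05, against 15.5% of all probe sets. Between the array sets 3 of the 33 lay wholly higher and 3 wholly lower on arrays 5 to 8, against 6.46% and 8.61% of all tested probe sets. Of the 33, AT2G46600 alone exceeded a log2 difference of 1.

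**Figure D4:**
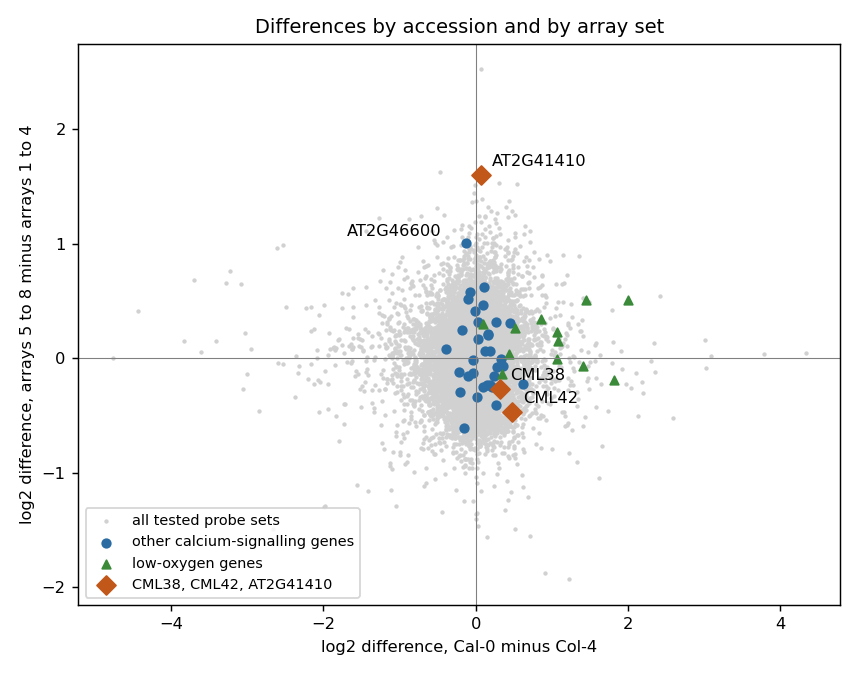
Each point is a tested probe set, placed by its log2 difference between the accessions (x) and between arrays 5 to 8 and arrays 1 to 4 (y); all tested probe sets are grey, 33 other calcium-signalling genes blue, 12 low-oxygen genes green triangles and the 3 calmodulin-like genes orange diamonds. AT2G41410 stands at 1.60 on the vertical axis and 0.07 on the horizontal, with AT2G46600 below it, while the low-oxygen genes spread to the right up to 2.00.

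CML38 is a low-oxygen gene, and a list of other genes of that response was read beside it. Of 24 loci 12 had a single-gene probe set in the table used here, and the other loci were not examined. All 12 were tested, and 4 rose in Cal-0, where 1.54% of all probe sets did. All 12 differences were positive, from 0.10 to 2.00 with a median of 1.07. AT3G29970 was at 591.3, 379.5, 592.6 and 973.9 in Cal-0 replicates 1 to 4. In Col-4 replicates 1 to 4 it was at 123.9, 116.1, 89.1 and 273.9, below every Cal-0 value, and the log2 difference was 2.00 (limma adjusted p = 0.0039). AT5G10040, AT4G27450 and AT1G19530 rose by 1.81, 1.41 and 1.08. HRA1 (AT3G10040), which dampens the low-oxygen response, had a log2 difference of 0.43 (limma adjusted p = 0.357). The difference of CML38, 0.31, was smaller than those of 11 of the 12.

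CML38 and these genes did not have the same high Col-4 array. In all 12 low-oxygen genes the highest Col-4 array was replicate 4, whereas CML38 was lowest there, at 26.3. Col-4 replicate 4 also had the highest 3′ to 5′ ratio of the 8 arrays, whose part in these values was not tested. Without that array 9 of the 12 passed, in a fit that called 251 of 15165 probe sets higher in Cal-0. Under the replicate block 8 passed, where 3.61% of all probe sets were called higher. Without Cal-0 replicate 1 only 3 passed, with 132 probe sets called higher in all, and AT1G19530 lost its call (limma adjusted p = 0.0551). For the difference within arrays 1 to 4 or within arrays 5 to 8, where each accession has 2 arrays, 1 of the 12 passed. These differences came from a single fit of all 8 arrays with a shared residual spread, which called 121 and 106 of all probe sets higher in Cal-0.

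**Figure D5:**
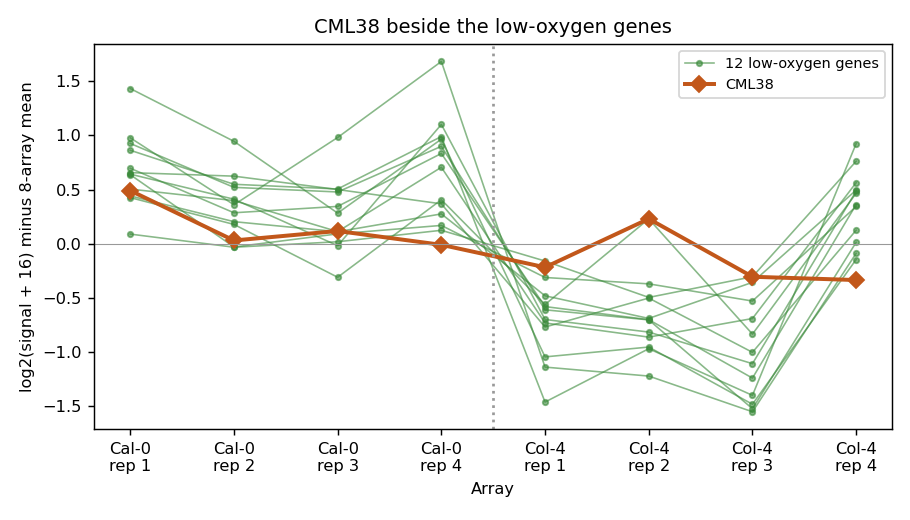
Deviation of log2(signal + 16) from its 8-array mean for CML38 (orange diamonds) and 12 low-oxygen genes (green), by accession and replicate; lines join the values of a gene and imply no order of the replicates. The green values of Col-4 replicate 4 lie above those of the other Col-4 arrays, while CML38 is lowest on that array.

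Genes of the responses in which CML42 takes part were few in the gene table. THI2.1 encodes a thionin, an antimicrobial peptide induced by jasmonate, and was lower in Cal-0, at 21.4 to 41.6 against 48.4 to 224 in Col-4. The log2 difference was -1.50 (limma adjusted p = 0.0214). The call was lost without Cal-0 replicate 1, Cal-0 replicate 2 or Col-4 replicate 2, at adjusted p of 0.0758, 0.0542 and 0.0709, and without the filter on low signal, at 0.0605. The defensin genes PDF1.2 and PDF1.2b, also induced by jasmonate, were the other 2 tested members and did not pass, at -0.84 and -0.36. The probe set of PDF1.2b is of the type that can hybridise with near-identical transcripts, so its value is uncertain. CML42 itself was at 0.48. Of 2 trichome genes neither passed: TRY, a repressor of trichome fate, had a difference of 0.17 with an interval of -0.35 to 0.68, and AT2G46600 is described above.

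Of 2 genes listed for induction by touch, neither passed. STZ, a zinc finger gene also induced by cold and salt, was at 122.7, 127.7, 187.9 and 66.9 in Cal-0 replicates 1 to 4. In Col-4 it lay between 67.7 and 84.7, so that Cal-0 replicate 4 was again the low Cal-0 array, as for CML42. The log2 difference of STZ was 0.58 (limma adjusted p = 0.235), and 0.81 without Cal-0 replicate 4, where it passed at an adjusted p of 0.0247. AT4G27280 was highest in Cal-0 replicate 3, at 212.8, the array on which AT2G41410 was highest too. Its values on arrays 5 to 8 lay wholly above those on arrays 1 to 4, with a log2 difference of 0.93, and the accession difference was 0.51 (limma adjusted p = 0.579).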

How the data were processed

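What the authors deposited is 1 linear intensity per probe set and array. MAS5 is the tool named in the submitters' processing notes, and its version was not given in the sources used here. After trimming 2% from each end, array means were 100.01, the mark of a common scaling. Detection calls were not analysed. Signals were transformed as log2(signal + 16), and probe sets whose mean over the arrays reached 25, 15165 in number, were fitted with limma 3.58.1 (R 4.3.3; lmFit, then eBayes) on 6 residual degrees of freedom. Tests were two-sided. Benjamini-Hochberg adjustment ran over all of these probe sets, and an adjusted p under 0.05 is a call. The number of arrays limits the precision. Alternatives were other pseudocounts (1 and 50) and filters, quantile normalization, median centring, an intensity trend, array weights, the replicate block, the array set, the 3′ to 5′ ratio and leaving out each array. Differences within a set of arrays were taken from a fit of all arrays, with a residual spread shared by the sets.

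Genes were named from the platform annotation, updated to RefSeq TAIR10.1 by gene identifier. A single gene was given for 13513 probe sets, several for 503, and the other 8730 are unnamed. No array build is named, so no coordinates are given. Where a gene had more than 1 probe set, lists took the brightest. The members, lists and tests were chosen with earlier results of these data known. The rule for naming took the 3 genes, up to 4 called members of each list in each direction or else the member with the smallest p, and the 5 probe sets most correlated with each of the 3 genes. Other genes in the text were singled out after their values were seen: CML43, CML41, AT2G41090, AT1G12310, CML37, CML23, CML30, AT3G59440, GLR2.7, HRA1, PDF1.2, PDF1.2b, AT4G27280 and the neighbours of the 3 genes. A list of EF-hand proteins by annotated name matched no gene.

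Deviations from the accession means of arrays with the same replicate number correlated at 0.278, 0.376, 0.478 and 0.403. The replicate block rests on these values and not on the labels. Unlike numbers of replicates 1 and 2 correlated as well, at 0.273 and 0.382. For those arrays, pairing by number and the array set cannot be told apart. Unlike numbers of replicates 3 and 4 correlated at 0.035 and 0.142. Differences and calls are from the fit without a block unless a block is named. On simulated data for Cal-0 against Col-4, with 15165 probe sets and the real means and spreads, the fit recovered 10.4% of log2 changes of 0.5, 72.2% of those of 1 and 97.6% of those of 2. Of the simulated calls 5.22% were false. The simulated noise was independent between probe sets and held no step between array sets. These shares therefore need not hold for the real arrays.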

Additional observations from a re-analysis of the deposited data

Results flagged for a closer look

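Among 56 groups of 4 arrays behind the 3 genes and the genes named by rule, 3 held an array far from the other 3, by Dixon's test of the gap to the nearest array at the 95% level. Chance gives about 1 in 20. AT1G18210 was at 157.0 in Col-4 replicate 4 against 225.5 to 241.9 on the other Col-4 arrays. In Col-4 replicate 2, AT3G08000 was at 51.3 against 34.2 to 35.8 and AT5G55860 at 53.9 against 46.4 to 46.8. Both were selected for their correlation with CML38, which was also highest of Col-4 on that array, so the shared array follows from the selection. No array of CML38, CML42 or AT2G41410 stood out in this way.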

How the results depend on the processing

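CML38 and CML42 stayed positive and uncalled under every alternative run. With all arrays kept, their limma adjusted p ran from 0.219 to 0.636 and from 0.0684 to 0.577. A mean signal of at least 100 left out CML38. An exact permutation test of the difference of means, adjusted over the 3 genes, gave an adjusted p of 0.214 for CML38 and for CML42. With each array left out in turn their differences ran from 0.20 to 0.44 and from 0.33 to 0.71. That of AT2G41410 ran from -0.32 to 0.38 and was -0.35 with the 3′ to 5′ ratio as a covariate; the cause was not tested. The spread difference of CML38 was 0.027 after quantile normalization against -0.02, and ran from -0.12 to 0.11 with arrays left out, that of CML42 from -0.076 to 0.21 and that of AT2G41410 from -0.33 to 0.32.

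The 651 calls (234 higher, 417 lower) became 406 (248 lower) with a mean signal of at least 100, which tests fewer probe sets. Blocking on the replicate number gave 1299 (548 and 751). They became 1095 (438 and 657) with the array set as a factor, 379 (121 and 258) within arrays 1 to 4 and 319 (106 and 213) within arrays 5 to 8. Leaving out an array gave 412 to 672 (132 to 251 and 271 to 421), the low counts coming where Cal-0 replicate 1 (412) or Col-4 replicate 2 (413) was absent. In the calmodulin list 1 gene, AT1G18210, was called higher with a pseudocount of 50, a mean signal of at least 100, array weights, the replicate block, the array set or the 3′ to 5′ ratio, and 0 to 1 with arrays left out. Without the filter 1 gene each of the calmodulin and the calcium transport list was lower. Low-oxygen calls were 8 with array weights and with the block, 1 within either set of arrays, and 3 to 9 with arrays left out. The jasmonate call went to 0 without the filter, with a mean signal of at least 100 (THI2.1 not tested) and within arrays 5 to 8, and was 0 to 1 with arrays left out, as the touch list did. The replicate block changed no other call in these lists. TRY was at -0.0082 within arrays 1 to 4 and from -0.028 to 0.34 with arrays left out, and AT2G46600 from -0.33 to 0.071. Signals near 0 have no background estimate, which limits what is said of genes below the filter.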
